A study of Homo sapiens with 4 samples.

Results

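The 33 genes described here encode the enzymes and transporters of glycolysis and lactate handling (21 genes) and the oxygen-sensing machinery with classical hypoxia-induced transcripts (12 genes). They were taken by gene name from a count table of 59384 gene names, and all 33 were found. RNA was sequenced from Daoy cells, an established human line from a cerebellar medulloblastoma. The control group (pLKO, 2 libraries) had been infected with the PLKO lentivirus and carries the genotype label WT. The other group (shFABP4, 2 libraries) had been infected with a virus carrying a short hairpin against FABP4, a fatty acid binding protein, and carries the label FABP4 knockdown. All cells were thus virus-infected and of a single line. The hairpin sequence, the number of hairpins, the time after infection and the oxygen tension of the cultures are not given in the sources used here. Whether a group's libraries stem from independent cultures is not stated, so p-values here describe library-to-library spread, which may be technical.

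Glycolysis splits glucose into pyruvate, with hexokinase, phosphofructokinase and pyruvate kinase as its controlled steps, and lactate dehydrogenase turns pyruvate into lactate. Tumour cells often run the pathway at a high rate even with oxygen present. When oxygen falls, the prolyl hydroxylases EGLN1 and EGLN3 stop marking HIF1A for destruction, and the stabilised factor binds short promoter and enhancer elements of genes for glucose uptake, glycolysis, lactate export, vessel growth and mitochondrial removal. HIF1A is controlled largely at the level of its protein, which was not measured.

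The libraries held 8988961 (pLKO 1), 13839885 (pLKO 2), 2539862 (shFABP4 1) and 20431660 (shFABP4 2) counted fragments. The library labelled shFABP4 1 stood apart: 368 of 381 olfactory receptor genes held a fragment there, against 38 to 68 in the other libraries. From 2761 coding genes with no fragment elsewhere, the background of shFABP4 1 came to 3.81 to 18.9 fragments per kb of exon, higher with GC content, and to 54.5% of its fragments. FABP4, the targeted gene, was counted 1 and 6 times in pLKO, 14 times in shFABP4 1 and 0 times in shFABP4 2. Counts this low in pLKO check neither the knockdown in shFABP4 2 nor the label of shFABP4 1. All 6 markers fixed for Daoy and neural progenitor cells (VIM, NES, CD44, GLI2, SOX9 and FN1) held a fragment in every library. For shFABP4 1 this does not tell cell types apart, because all 6 markers of each list named next also held a fragment there. In CPM (counts scaled to the library total) the Daoy markers summed to 1922 (pLKO 1), 1937 (pLKO 2), 1506 (shFABP4 1) and 7018 (shFABP4 2). The lists of 6 adipocyte, leukocyte, epithelial and mature neuron markers summed to 2.34 to 43.4 CPM in pLKO, 82.7 to 515 in shFABP4 1 and 1.08 to 58.5 in shFABP4 2. LPL, LYZ and STMN2 were at 0 in pLKO and in shFABP4 2, while GRIN1 alone held 634 fragments in shFABP4 1. Other markers of these lists were counted in pLKO 1, pLKO 2 and shFABP4 2. The adipocyte marker CFD held 380, 577 and 1172 fragments there, the leukocyte marker CD14 20, 36 and 17, and the neuronal SNAP25 20, 26 and 196. Fragments of the adipocyte, leukocyte, epithelial and mature neuron lists in shFABP4 1 exceeded the expected background. They were 307 against 196, 210 against 169, 362 against 222 and 1309 against 470, in that order. The subtraction may thus leave background behind in genes with few fragments elsewhere. The part of this background in the values below was not tested beyond its subtraction.

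Because of that background, values are given for every member, but changes are described first for the high-signal genes. These are the 1072 coding genes whose RNA fragments in shFABP4 1, projected from their mean share elsewhere, reached 5 times the background or more. Of the 33 members 12 were in this set: HK1, GPI, PFKP, TPI1, GAPDH, PGK1, ENO1, PKM, LDHA, LDHB, HIF1A and DDIT4. Nearest to the limit were HK1 at 5.56 times the background and PFKL, left out at 4.66. In a set drawn from the pLKO libraries alone (1060 genes) HK1 and GAPDH dropped out and PFKL entered, so HK1 and GAPDH were placed through their high value in shFABP4 2 and the choice favoured their increase. Of the 21 members outside the set, 19 held under 3 times the expected background in shFABP4 1.

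**Figure D1:**
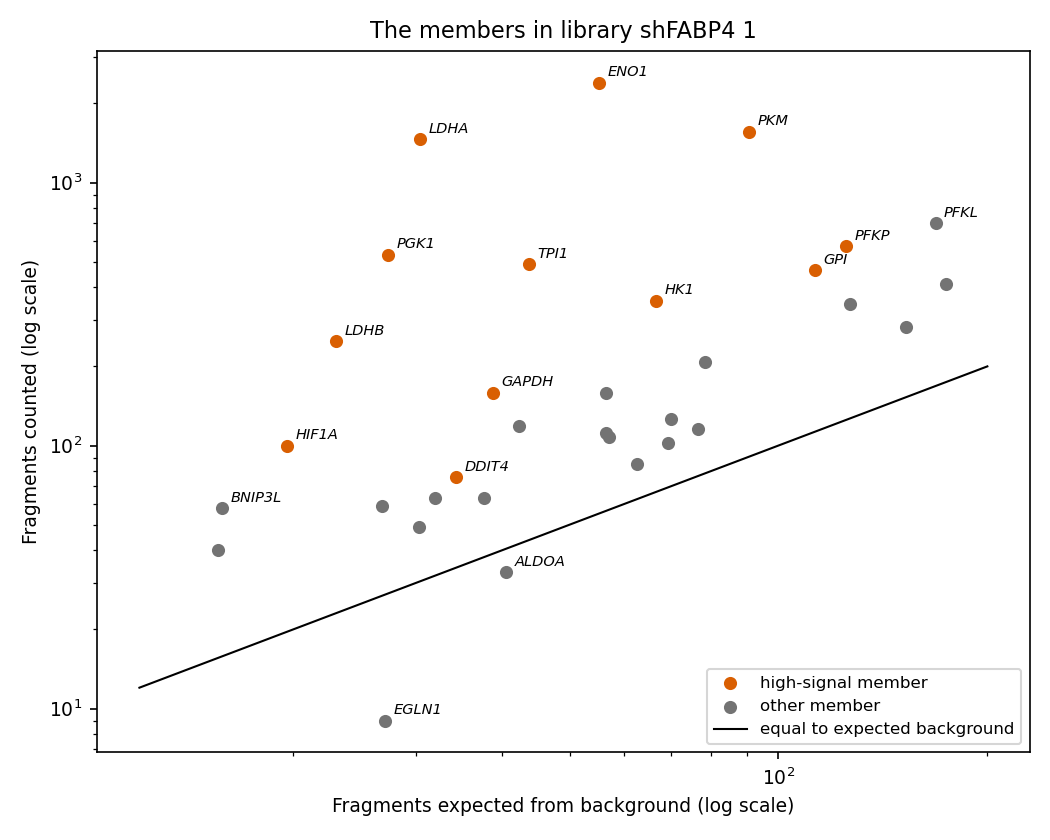
Fragments counted in shFABP4 1 (vertical, log scale) against fragments expected there from background (horizontal, log scale) for the 33 genes, with high-signal genes in orange and a line where both are equal. LDHA, with 1465 fragments against 30.4 expected, and ENO1, with 2399 against 55.2, lie far above the line, whereas ALDOA and EGLN1 lie below it.

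In the control cells the pathway was expressed unevenly. Levels per gene length (TPM, fragments per kb of exon scaled to the same sum in each library) were highest for ENO1, the enolase of most tissues, at 2442 and 2406 in the pLKO libraries, rank 47 of 19395 coding genes in both. TPI1, triose phosphate isomerase, followed at 1049 and 1056, and PKM, pyruvate kinase, at 1036 and 1047, with ranges that nearly touch. By these levels LDHB stood at 407 and 401 and LDHA at 312 and 314. The phosphofructokinases of liver and platelet type, PFKL (211 and 214) and PFKP (185 and 195), lay above the muscle type PFKM at 21.2 and 21.1. GPI was at 156 and 151, PGK1 at 143 and 145, GAPDH at 123 and 129, HK1 at 110 and 107, and PGAM1 at 45.9 and 46.0. HK2, the hexokinase often raised in tumours, was at 0.947 and 0.553, and ALDOC, the brain aldolase, at 2.68 and 2.92. Among hypoxia genes DDIT4, an inhibitor of mTORC1, led at 249 and 256 TPM, HIF1A stood at 64.0 and 63.1, and the glucose transporter SLC2A1 at 10.04 and 9.01. CA9, a carbonic anhydrase used as a hypoxia marker, had no fragment in pLKO or in shFABP4 2, where 3 fragments would be 0.334, 0.217 and 0.147 CPM.

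Several of these levels are limited by how fragments were counted. Counting was by gene name, without strand, and fragments that fit exons of several names are not counted by the program's default. ALDOA, the main aldolase of most cells, held 0, 0, 33 and 12 fragments in pLKO 1, pLKO 2, shFABP4 1 and shFABP4 2. Exons of other gene names cover 92.9% of its coding bases, mainly CTD-2515O10.6, which itself held 0, 0, 74 and 3. In LDHB 93.5% of the coding bases lie under another gene name, a row that held at most 6 fragments in any library, and the part of such overlaps in the levels was not tested. Other overlaps reached 30.3% of the coding bases in EGLN1, 39.1% in CA9 and 21.5% in GAPDH, and LDHA, PKM, HK2 and DDIT4 had none. GAPDH also has 65 named pseudogenes in the table. Of the combined GAPDH fragments they took 6.47% (pLKO 1), 6.14% (pLKO 2), 79.7% (shFABP4 1) and 0.679% (shFABP4 2). For PGAM1 the 13 pseudogenes took 7.96% and 9.05% in pLKO, 72.3% in shFABP4 1 and 4.26% in shFABP4 2. Pseudogenes of BNIP3 (39) held 1.15% (pLKO 1), 0.982% (pLKO 2), 58.5% (shFABP4 1) and 1.67% (shFABP4 2). High shares were thus seen only in shFABP4 1, the library with the background. Its 623 GAPDH pseudogene fragments were summed over 65 names, and GAPDHP40 held 16 of them, against 35 (pLKO 1) and 47 (pLKO 2). Whether these shares reflect background or fragments lost from the genes themselves was not tested. GAPDH and PGAM1 are therefore uncertain, as is BNIP3 in shFABP4 1, while pseudogenes of LDHA and PGK1 took at most 2.56% in any library.

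The question of the design is which transcripts differ between cells with and without the FABP4 hairpin. Over the 14735 genes that could be tested (edgeR, quasi-likelihood), 31 members could be tested and 0 passed an adjusted p of 0.05, as did 0 (0%) of all genes. An unadjusted p under 0.05 was reached by 5 of the 31 members, against 12.3% of all genes (1818), and limma-voom called 0 members while DESeq2 called 1, SLC16A3. The 20 tested glycolysis and lactate genes had a median log2 change of -0.33 and the 11 oxygen and hypoxia genes of -0.38, where all tested genes had 0.34. This fit scales shFABP4 1 with its background included, and all 12 members described next as high-signal had a lower log2 change in it than among high-signal genes.

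Among high-signal genes 5 of the 12 members passed: LDHA, PGK1 and HK1 rose and LDHB and DDIT4 fell in shFABP4 (edgeR, adjusted p under 0.05). Over all 1072 genes of the set 32.1% passed, 17% higher and 15.1% lower, so a count of 5 in 12 does not set these genes apart. Values below are fragments relative to the high-signal total of the library, scaled by edgeR's TMM method within the set (scaled fragments). By these values both shFABP4 libraries lay above both pLKO libraries for 6 of the 12 members (38.4% of the set) and below for 3 (40.8% of the set). With background subtracted these were 5 (35.9% of the set) and 3 (42.8%). Of the 21 other members 12 lay above and 0 below on the same scale, where 60.4% and 4.71% of all tested genes did, and 10 and 1 with background subtracted (41.4% and 14.1%). With shFABP4 1 left out, 25 of 31 members passed over all genes, where 66.9% of genes passed, and all 12 in the high-signal set, where 92.7% passed. The set drawn from pLKO alone called 3 of its 11 members (22.4% of its genes), background subtraction 5 of 12 (37.8%), and a fit corrected for GC and exon length 4 of 12 (25%).

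**Figure D2:**
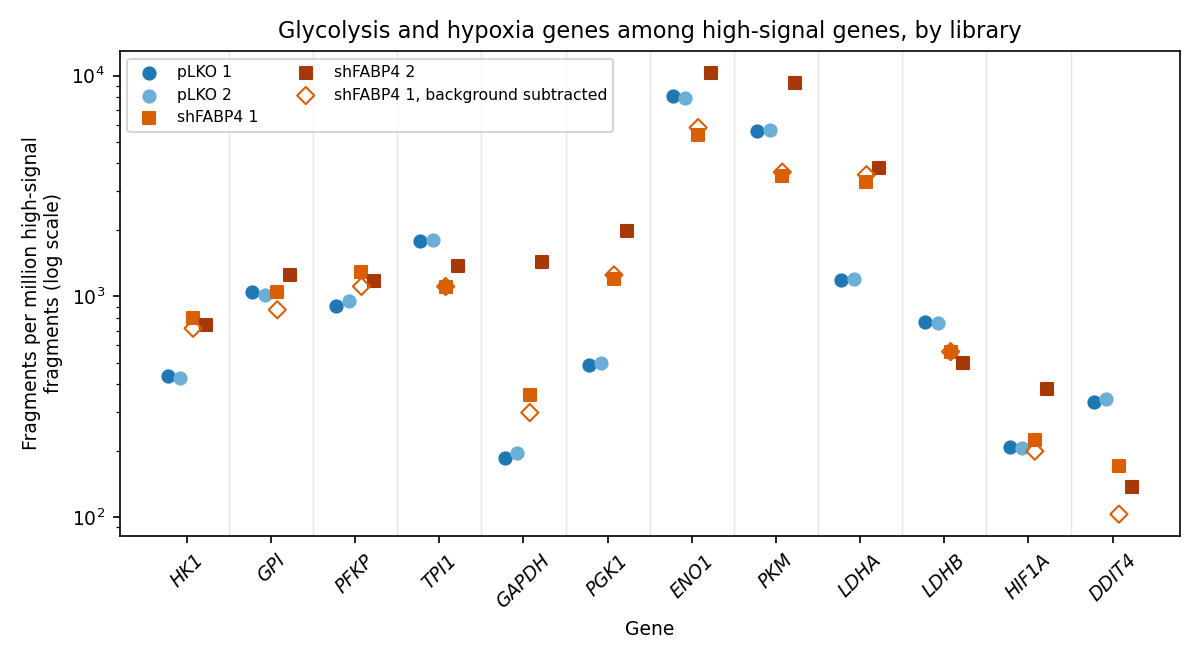
Scaled fragments (vertical, log scale) of the 12 high-signal genes in each library, with circles for pLKO, squares for shFABP4 and open diamonds for shFABP4 1 after subtraction of the expected background. LDHA and PGK1 lie higher and LDHB and DDIT4 lower in both shFABP4 libraries, while ENO1 and PKM have the shFABP4 libraries on opposite sides of pLKO.

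LDHA, the lactate dehydrogenase subunit that favours the making of lactate, was at 1188 and 1199 scaled fragments in the pLKO libraries and at 3298 and 3827 in shFABP4 1 and 2. The shFABP4 libraries were the higher pair, with no overlap, and rested on 1465 and 43872 counted fragments. The pLKO mean was 1194 ± 7.73 (SD, n = 2) and the shFABP4 mean 3563 ± 375 (SD, n = 2). This is 1.58 on the log2 scale (SE 0.16; edgeR, adjusted p = 0.0126). It was 1.68 (edgeR adjusted p = 0.0241) in the set drawn from pLKO alone and 1.65 with background subtracted. After correction for GC content and exon length it was 0.96 (SE 0.15, edgeR adjusted p = 0.0270). Without pLKO 1 or pLKO 2 the adjusted p was 0.101 or 0.0941 (edgeR), with log2 changes of 1.54 and 1.58. In the fit over all tested genes, where shFABP4 1 lay below pLKO, the LDHA change was 0.48 (SE 1.26, edgeR adjusted p = 0.852).

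LDHB, the subunit typical of tissues that take up lactate, went the other way. It was at 765 and 757 scaled fragments in pLKO, against 563 and 501 in shFABP4, again without overlap. Its log2 change of -0.52 (SE 0.13, edgeR adjusted p = 0.0481) was close to the threshold. It did not pass in the set drawn from pLKO alone (-0.43, edgeR adjusted p = 0.0825), with background subtracted (-0.50, edgeR adjusted p = 0.0889), or without pLKO 1 (edgeR adjusted p = 0.497) or pLKO 2 (0.535). After correction for GC content and length it was -0.89 (edgeR adjusted p = 0.0266), and over all tested genes the LDHB change was -1.75 (SE 1.08, edgeR adjusted p = 0.447).

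The balance of both subunits can be read within each library, where scaling between libraries plays no part. Per kb of exon LDHA made up 43.4% (95% Wilson interval 42.5 to 44.4) and 43.9% (43.2 to 44.7) of LDHA plus LDHB in pLKO. In shFABP4 1 the LDHA share was 74.3% (71.7 to 76.8) and in shFABP4 2 it was 79.1% (78.6 to 79.5). Both shFABP4 libraries were above pLKO by more than the libraries of either group differed from each other, and with background subtracted the share in shFABP4 1 was 75.7%. With 2 libraries a group an exact permutation test cannot go below p = 0.333, so no test is given for these shares. Intervals cover counting error only. The annotated exon overlap at LDHB is the same in all libraries, but whether it removes the same part of LDHB fragments in each was not tested. The shares thus do not give the proportions of the subunits, and comparing libraries by them assumes an equal loss.

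The promoter windows of LDHA, LDHB, PGK1 and DDIT4 are shown because the hypoxia-inducible factor binds a short core, searched here as ACGTG or GCGTG on both strands. The windows are the 250 bases before the first listed RefSeq start (GRCh38.p14), 5′ to 3′ on the gene's strand, with every match in capitals. LDHA lies at chr11:18394313-18394562 (plus strand), LDHB at chr12:21657843-21658092 (minus strand), PGK1 at chrX:78103998-78104247 (plus strand) and DDIT4 at chr10:72273674-72273923 (plus strand).
LDHA: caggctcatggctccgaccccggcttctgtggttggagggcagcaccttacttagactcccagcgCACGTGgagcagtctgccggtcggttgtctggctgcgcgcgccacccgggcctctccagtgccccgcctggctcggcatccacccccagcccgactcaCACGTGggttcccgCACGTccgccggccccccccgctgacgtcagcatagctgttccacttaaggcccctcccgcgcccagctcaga
LDHB: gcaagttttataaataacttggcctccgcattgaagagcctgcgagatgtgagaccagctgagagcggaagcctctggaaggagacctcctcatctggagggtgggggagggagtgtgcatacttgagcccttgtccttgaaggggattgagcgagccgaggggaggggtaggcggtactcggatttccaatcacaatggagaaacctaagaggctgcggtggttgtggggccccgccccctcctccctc
PGK1: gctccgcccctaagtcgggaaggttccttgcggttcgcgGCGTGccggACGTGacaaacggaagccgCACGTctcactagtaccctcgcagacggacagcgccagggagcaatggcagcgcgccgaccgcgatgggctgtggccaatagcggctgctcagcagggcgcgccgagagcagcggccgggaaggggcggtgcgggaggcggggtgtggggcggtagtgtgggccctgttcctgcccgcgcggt
DDIT4: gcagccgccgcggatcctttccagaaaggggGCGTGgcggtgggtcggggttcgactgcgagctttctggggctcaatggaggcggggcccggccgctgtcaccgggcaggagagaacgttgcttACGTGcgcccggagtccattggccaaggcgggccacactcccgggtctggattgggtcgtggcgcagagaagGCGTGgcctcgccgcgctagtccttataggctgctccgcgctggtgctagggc
LDHA held 5 matches, counting each palindrome CACGTG on both strands, PGK1 and DDIT4 held 3 each and LDHB held 0. Of members not shown, HK1, which rose among high-signal genes, held 0. BNIP3, with a negative change over all tested genes, held 6. Matches were thus present, and absent, in members of either direction. CACGTG is also the E-box bound by MYC and other factors, and 7.86% of 15214 coding promoters hold it. At least 1 match was present in 17 of the 29 members found in the RefSeq table, and in 50.7% of the coding promoters. At least 3 matches were present in 10.1% of coding promoters and at least 5 in 1.78%. A match is a description of the letters only.

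PGK1, phosphoglycerate kinase and the first ATP-yielding step, was at 490 and 500.0 scaled fragments in pLKO, against 1197 and 1980 in shFABP4. Both shFABP4 libraries were higher. The log2 change was 1.69 (SE 0.30, edgeR adjusted p = 0.0271), and PGK1 passed with each of the 4 libraries left out in turn. It did not pass after correction for GC content and length (1.07, SE 0.28, edgeR adjusted p = 0.0649) or over all tested genes (PGK1 0.74, SE 1.28, edgeR adjusted p = 0.769). The longest PGK1 and LDHA transcripts have GC contents of 43.3% and 44.0%, the lowest among the 10 glycolysis and lactate genes of the set.

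HK1, the broadly expressed hexokinase that phosphorylates glucose on entry, was at 437 and 428 scaled fragments in pLKO, against 801 and 743 in shFABP4. Its 4 values did not overlap between groups, and the log2 change was 0.83 (SE 0.12, edgeR adjusted p = 0.0181). HK1 was placed in the set through shFABP4 2, as above, so this call is not independent support for an increase. The adjusted p was 0.275 without pLKO 1 and 0.322 without pLKO 2 (edgeR). Over all tested genes HK1 had the opposite sign, -0.37 (SE 1.04, edgeR adjusted p = 0.859), and on that scale the libraries overlapped, at 375 and 368 TMM-scaled CPM in pLKO against 92.8 (shFABP4 1) and 481 (shFABP4 2). HK2 was counted 20 and 18 times in pLKO and 27 times in shFABP4 2, and its 85 fragments in shFABP4 1 compare with 62.6 expected from background. HK2 made up 0.852% and 0.512% of both hexokinases per kb in pLKO, 20.2% (16.7 to 24.3) in shFABP4 1 and 0.336% in shFABP4 2. With background subtracted the HK2 share in shFABP4 1 was 7.60%, or 10.7% with a background by length only.

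**Figure D3:**
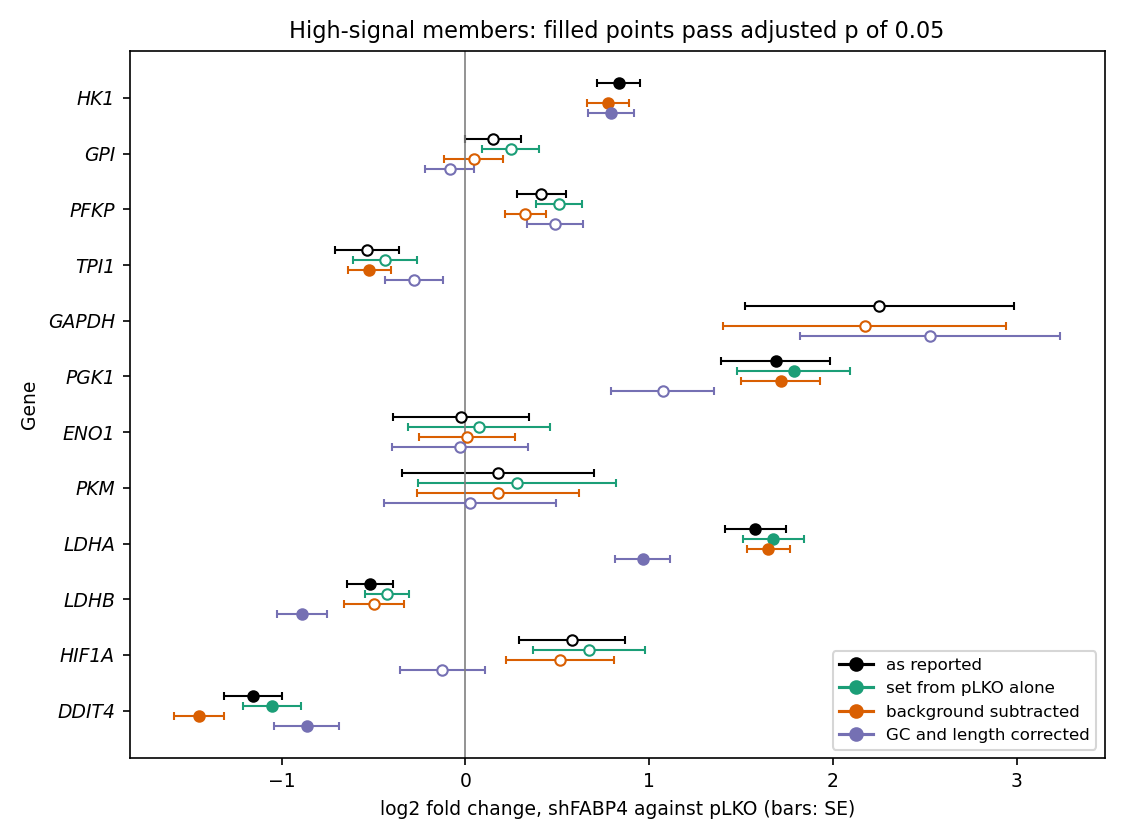
Log2 fold change of shFABP4 against pLKO (horizontal, bars show the SE) for the 12 high-signal genes, as reported and under 3 alternatives, with filled points where the adjusted p is under 0.05 in edgeR. LDHA and DDIT4 are filled under all 4, while HK1 and GAPDH have no point for the set drawn from pLKO alone.

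The other steps of upper glycolysis did not pass. GPI, which turns glucose 6-phosphate into fructose 6-phosphate, was at 1049 and 1019 scaled fragments in pLKO, against 1044 and 1245 in shFABP4, with overlap (log2 fold change 0.15, SE 0.15). Over all tested genes GPI, PFKP, PKM and HIF1A had the opposite sign to their high-signal values, at -0.94, -0.80, -0.60 and -0.38. PFKP was at 901 and 952 in pLKO, against 1290 and 1180 in shFABP4, without overlap, at 0.41 (SE 0.13, edgeR adjusted p = 0.0848). TPI1 was at 1787 and 1805 in pLKO, against 1105 and 1367 in shFABP4, the lower pair, at -0.54 (SE 0.17, edgeR adjusted p = 0.0848). With background subtracted TPI1 did pass (-0.52, edgeR adjusted p = 0.0415). The rate-limiting phosphofructokinase step is shared by PFKL and PFKP, and PFKP made up 46.7% (45.8 to 47.6) and 47.7% (46.9 to 48.4) of that pair per kb in pLKO. In shFABP4 1 it made up 48.6% (45.8 to 51.4) and in shFABP4 2 59.1% (58.5 to 59.7), so the interval of shFABP4 2 alone was clear of pLKO. PFKL held 6727, 10491, 700 and 10825 fragments and PFKM 547, 841, 116 and 1507 in pLKO 1, pLKO 2, shFABP4 1 and shFABP4 2, with 168 and 76.7 expected from background in shFABP4 1. ALDOC held 25 and 42 fragments in pLKO, 119 in shFABP4 1 (42.3 expected from background) and 217 in shFABP4 2. Both shFABP4 libraries lay above pLKO also with background subtracted, but how much background the subtraction left in shFABP4 1 was not tested. The ALDOC log2 fold change over all tested genes was 2.43 (SE 0.69, unadjusted p = 0.0219, edgeR adjusted p = 0.391). It was 1.61 without shFABP4 1, 1.75 without shFABP4 2, 1.83 without pLKO 1, and 3.71 for ALDOC with library totals in place of TMM.

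In lower glycolysis the shFABP4 libraries often disagreed with each other. GAPDH, which makes the NADH later used by lactate dehydrogenase, was at 186 and 195 scaled fragments in pLKO, against 358 (shFABP4 1) and 1429 (shFABP4 2). Both were higher, at 1.88 and 7.49 times the pLKO mean, and the log2 change of 2.25 (SE 0.73, edgeR adjusted p = 0.0887) did not pass. In DESeq2 with all libraries GAPDH did pass (adjusted p = 0.000276), as did 44.6% of the set. With a library left out the GAPDH log2 change was 2.16 (without pLKO 1), 2.27 (without pLKO 2), 0.90 (without shFABP4 2) and 2.90 (without shFABP4 1). Such fits take the spread of the lone library from the other group. The set was not redrawn for them, and GAPDH was placed in it through shFABP4 2. ENO1 was at 8036 and 7947 in pLKO, 5400 in shFABP4 1 and 10285 in shFABP4 2, and PKM at 5602 and 5685, 3520 and 9240. For both, shFABP4 1 lay below pLKO and shFABP4 2 above (log2 fold changes -0.03, SE 0.37, and 0.18, SE 0.52). PGAM1, phosphoglycerate mutase, held 416 and 643 fragments in pLKO, 59 in shFABP4 1 (26.9 expected from background) and 1551 in shFABP4 2. ENO2, the neuronal enolase, held 88 and 129, 102 (69.3 expected) and 283.

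Glucose and lactate cross the membrane through SLC2A1 (GLUT1), SLC16A1 (MCT1) and SLC16A3 (MCT4, the exporter typical of glycolytic cells). SLC16A3 held 3995 and 6033 fragments in the control libraries, 413 in shFABP4 1 (174 expected from background) and 2348 in shFABP4 2. In scaled fragments this was 706 and 694 in pLKO against 930 and 205, with shFABP4 1 above and shFABP4 2 below pLKO; with background subtracted shFABP4 1 stood at 592, below pLKO as well. The log2 fold change over all tested genes was -2.32 (SE 0.76, unadjusted p = 0.0328, edgeR adjusted p = 0.391), and DESeq2 gave the call named above. Without shFABP4 2 the SLC16A3 change was -3.68, where the 21 glycolysis and lactate genes had a median of -3.19. With library totals in place of TMM the SLC16A3 change was -1.36. SLC16A1 held 74, 124, 63 and 245 fragments, with 32.0 expected from background in shFABP4 1. Per kb SLC16A1 made up 2.62% (2.10 to 3.28) and 2.90% (2.44 to 3.45) of SLC16A1 plus SLC16A3 in pLKO, 18.2% (14.6 to 22.4) in shFABP4 1 and 13.2% (11.7 to 14.8) in shFABP4 2. Both shFABP4 shares were above pLKO, and shFABP4 1 stood at 15.9% with background subtracted by GC content but at 3.58% with a background by length only. SLC2A1 held 237 and 328 fragments in pLKO, 126 in shFABP4 1 (70.0 expected) and 718 in shFABP4 2. PDK1, which shuts pyruvate out of the mitochondrial oxidation, held 39 and 42, 112 (56.5 expected) and 181.

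**Figure D4:**
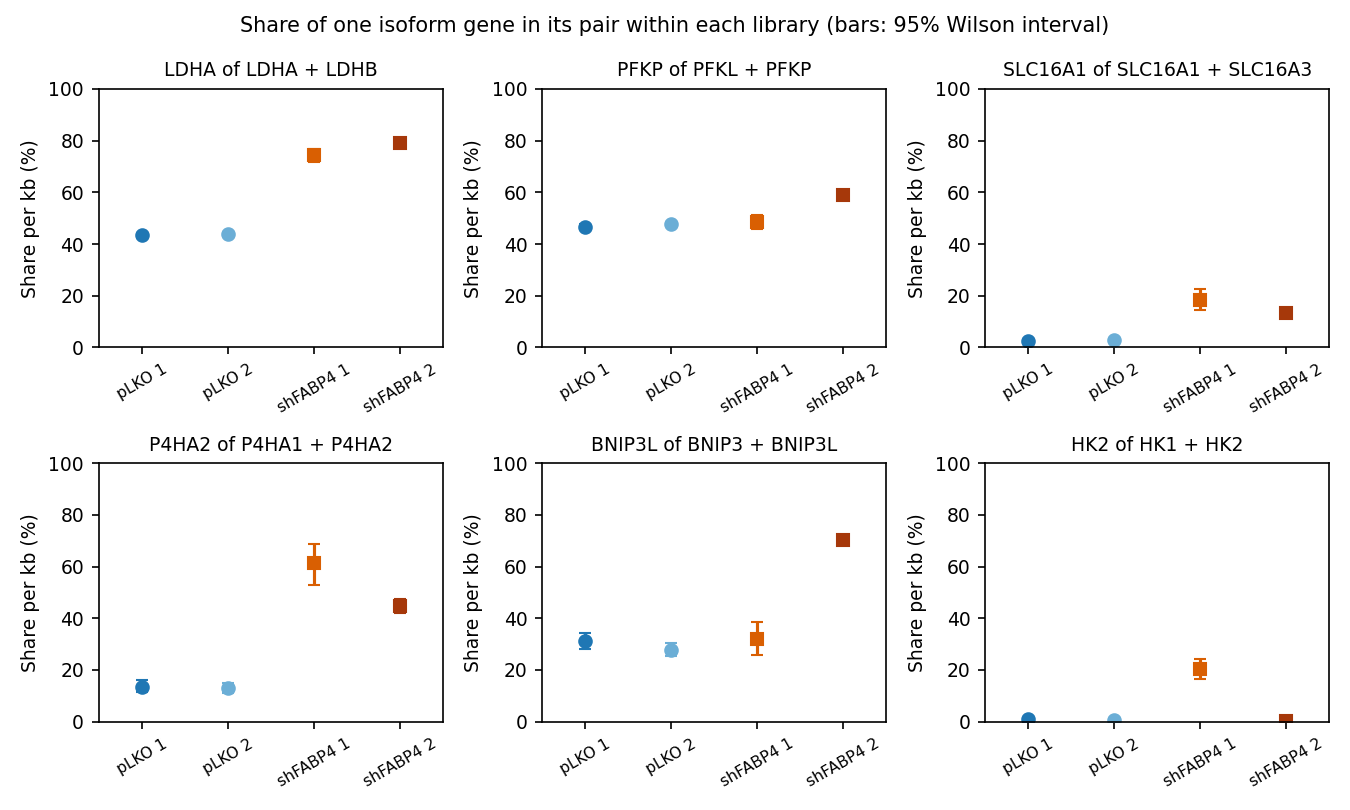
Share per kb of exon of the first-named gene in its pair (vertical, percent) in each library, with 95% Wilson intervals of counting error. The LDHA, SLC16A1 and P4HA2 shares are higher in both shFABP4 libraries than in pLKO, BNIP3L and PFKP stand clear of pLKO in shFABP4 2, and HK2 in shFABP4 1.

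Oxygen sensing gave no call. HIF1A was at 208 and 206 scaled fragments in pLKO, against 225 (shFABP4 1) and 380 (shFABP4 2), a log2 change of 0.58 (SE 0.29, edgeR adjusted p = 0.187). With background subtracted shFABP4 1 stood at 199 scaled fragments, below pLKO, so the groups overlapped. EGLN1, the main HIF prolyl hydroxylase, held 3 and 10 fragments in pLKO, 9 in shFABP4 1, where 27.1 were expected from background, and 105 in shFABP4 2. Its log2 change of 2.50 over all tested genes (SE 0.89, unadjusted p = 0.0453, edgeR adjusted p = 0.391) rests on these low counts and on a gene of which other names cover 55.8% of the exon bases. Without shFABP4 2 the EGLN1 change was 0.42 (edgeR adjusted p = 0.718), and it was 1.90 without pLKO 1. EGLN3, itself a HIF target, held 7 and 23, 108 (56.9 expected) and 16.

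Of the hypoxia effectors DDIT4 alone was in the high-signal set. DDIT4 stood at 5.65 times the background there, and at 7.17 when projected from pLKO alone. Its place in either set thus leaned on its pLKO values, and the choice favoured a fall in DDIT4. It was at 333 and 343 scaled fragments in pLKO, against 171 and 138 in shFABP4, the lower pair, with means of 338 ± 7.65 and 154 ± 23.7 (SD, n = 2 each). DDIT4 fell by 1.16 on the log2 scale (SE 0.16, edgeR adjusted p = 0.0185), by 1.05 in the set drawn from pLKO alone (edgeR adjusted p = 0.0315), and by 0.86 after correction for GC content and length (edgeR adjusted p = 0.0440). Its 76 fragments in shFABP4 1 compare with 34.3 from background, and with these subtracted the fall was 1.45. Without pLKO 1 or pLKO 2 the adjusted p was 0.0883 or 0.103 (edgeR), and over all tested genes the DDIT4 change was -2.41 (SE 0.96, edgeR adjusted p = 0.392).

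The remaining effectors are given by their counts in pLKO 1, pLKO 2, shFABP4 1 and shFABP4 2. VEGFA, the vessel growth factor, held 588, 962, 282 and 948 fragments, with 153 expected from background in shFABP4 1. ADM, the vasodilator adrenomedullin, held 251, 368, 63 and 843 (37.6 expected), and NDRG1, a stress-induced protein, held 1598, 2378, 345 and 2596 (127 expected). In scaled fragments ADM was above pLKO in both shFABP4 libraries, while VEGFA and NDRG1 were above in shFABP4 1 and below in shFABP4 2, also with background subtracted.

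BNIP3 and BNIP3L, mitophagy receptors induced by low oxygen, split in shFABP4 2. BNIP3 held 690, 1008, 159 and 648 fragments and BNIP3L 242, 304, 58 and 1204, with 56.3 and 15.8 expected from background in shFABP4 1. BNIP3L made up 31.0% and 27.9% of the pair per kb in pLKO, 31.9% in shFABP4 1 and 70.5% in shFABP4 2. Thus the share was higher in shFABP4 2 alone, while the BNIP3L level itself was higher in both shFABP4 libraries, at 42.8 and 35.0 scaled fragments in pLKO against 131 and 105 (105 in both with background subtracted). BNIP3L passed when the high-signal limit was set at 2 times the background (log2 change 1.35, edgeR adjusted p = 0.0263). Of the 2263 genes in that set 23.9% passed. BNIP3L stood at 2.63 times the background, but at 1.79 when projected from pLKO alone. It was thus placed there through shFABP4 2, and this call is not independent support for an increase. Over all tested genes BNIP3 had a log2 change of -1.39 (SE 0.46, unadjusted p = 0.0355, edgeR adjusted p = 0.391). The BNIP3 change was -2.50 without shFABP4 2, where the 12 oxygen and hypoxia genes had a median of -2.35. With library totals in place of TMM the BNIP3 change was -0.32. In scaled fragments BNIP3 was at 122 and 116 in pLKO, against 358 (shFABP4 1) and 56.5 (shFABP4 2), on opposite sides. With background subtracted shFABP4 1 stood at 255, still above pLKO.

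The collagen prolyl 4-hydroxylases P4HA1 and P4HA2, which let collagen fold, also had another balance in the shFABP4 libraries. P4HA1 held 281, 429, 40 and 418 fragments (15.6 expected in shFABP4 1) and P4HA2 144, 209, 207 and 1112 (78.3 expected). P4HA2 made up 13.5% (11.4 to 16.1) and 13.0% (11.2 to 14.9) of the pair per kb in pLKO, 61.2% (53.0 to 68.9) in shFABP4 1 and 44.8% (42.1 to 47.6) in shFABP4 2. Both shFABP4 libraries were higher, and shFABP4 1 stood at 61.7% with background subtracted, or 73.2% with a background by length only. P4HA2 held 2.64 times the expected background in shFABP4 1, and how much background the subtraction left there was not tested. P4HA2 had a log2 change of 1.46 over all tested genes (SE 0.44, unadjusted p = 0.0254, edgeR adjusted p = 0.391). It was 0.15 without shFABP4 2 (edgeR adjusted p = 0.351) and 2.44 for P4HA2 with library totals in place of TMM.

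Lists of further genes of these pathways gave 0 calls over all tested genes. Of 30 other hypoxia target genes all were tested and 5 reached an unadjusted p under 0.05 (edgeR), against 12.3% of all tested genes. ANGPTL4, an inhibitor of lipoprotein lipase, was in the high-signal set and fell. Its place there leaned on its high pLKO values, so the choice favoured a fall in ANGPTL4. It was at 2846 and 2872 scaled fragments in pLKO against 212 and 236 in shFABP4 (log2 change of ANGPTL4 -3.67, SE 0.16, edgeR adjusted p = 0.0124), where shFABP4 1 held 94 fragments with 46.7 expected from background. PLOD1, a collagen lysyl hydroxylase, held 2474, 3950, 151 and 1687 fragments (86.1 expected in shFABP4 1). Of 12 other HIF pathway components RBX1, part of the ubiquitin ligase that removes HIF1A and many other proteins, rose by 1.18 on the log2 scale (SE 0.12, edgeR adjusted p = 0.0126), and ELOB, of the same kind of ligase, was at -0.84 (SE 0.43, edgeR adjusted p = 0.197). The components with the smallest p over all genes, ARNT2 and HIF1AN, did not pass (adjusted p = 0.391 and 0.406, edgeR).

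None of 13 genes of pyruvate dehydrogenase and its regulators passed in either fit, 1 of them, the mitochondrial pyruvate carrier MPC2, being high-signal (0.87, SE 0.22, edgeR adjusted p = 0.0531). MPC2 was placed in that set through shFABP4 2. PDP2 and PDP1, phosphatases that switch the enzyme on, had the smallest p over all genes (adjusted p = 0.463 and 0.513, edgeR). Of 14 other glucose and monocarboxylate transporters BSG, the chaperone of the lactate transporters, was at 2538 and 2530 scaled fragments in pLKO, against 1864 and 3274 in shFABP4, on opposite sides. SLC2A12 and SLC2A8 had the smallest p there (adjusted p = 0.392 each, edgeR). Of 22 other glycolysis isoenzymes and regulators 8 were tested, with BPGM and ENO3 first (adjusted p = 0.392 and 0.494, edgeR), and no gene was high-signal.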

How the data were processed

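Per the file headers, the authors counted fragments per gene name over exons with featureCounts v2.0.0 and GENCODE 38, leaving out chimeric fragments, with no strand option; the deposited values are raw counts. Per the submitters' processing notes, FastQC, HISAT and StringTie were used with GRCh38; tool versions are not given in the sources used here. Per the labels' protocols, mRNA was captured on beads and fragmented with Tn5. Exon lengths came from the deposited table; the broken row of ANK2 was left out.

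Tests used edgeR 4.0.16 (R 4.3.3): TMM, filterByExpr (minimum count 10, total 15), robust quasi-likelihood F test, two-sided, Benjamini-Hochberg adjustment over all genes tested, threshold 0.05; the SE is the log2 change over the square root of F. For high-signal genes, TMM and adjustment were redone within the set, without a count filter. Gene types came from GENCODE 29 and RefSeq; GC content, that of the longest GENCODE 29 transcript, was available for 91.5% of genes with a mean of 20 counts and for all 33 members. Background rates used 6 GC bins. Background-subtracted values of shFABP4 1 were rescaled to the subtracted high-signal total. DESeq2 1.42.0 and limma 3.58.1 were alternatives. The fit was tested on simulated counts. These held no background particular to shFABP4 1, so the background estimate, its subtraction and the choice of the set were not checked. All members were named; statistics were given for high-signal members and those with an unadjusted p under 0.05, and in other lists for the 2 smallest p and high-signal genes, of which 1 gene is not reported here. Members and lists were chosen with earlier results of these data known; the subtraction before the fit was added after seeing the data.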

Additional observations from a re-analysis of the deposited data

How the results depend on the processing

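Within the high-signal fits LDHA, PGK1, HK1, GAPDH, LDHB, TPI1 and DDIT4 kept their direction in each alternative whose set held them; HK1 was not in the sets from pLKO alone or at 10 times the background, stood at 0.036 with library totals, and was -0.37 over all tested genes. LDHA passed in 10 of 12 alternatives that kept all libraries, DDIT4 in 10 of 11, HK1 in 8 of 10, PGK1 in 8 of 12 and LDHB in 2 of 12. Library totals in place of TMM (high-signal genes) moved the median of the set from 0.01 to -0.76, left 0 of 1072 genes and 0 members called (103 genes at an unadjusted p under 0.05), and turned GPI to -0.56, PFKP to -0.39, PKM to -0.29 and HIF1A to -0.038. At 2 times the background 541 of 2263 genes (23.9%) and 2 of 17 members were called (GPI -0.068). At 10 times these were 194 of 540 genes (35.9%) and 2 of 7 members (ENO1 0.018). With background by length only they were 208 of 1287 genes (16.2%) and 3 of 13 members (ENO1 0.069). The set from pLKO alone gave 237 of 1060 genes (22.4%) and 3 of 11 members (ENO1 0.074). ENO1 also turned with upper-quartile scaling (0.052) and background subtraction (0.0099), PKM with limma-voom (-0.22), and GPI (-0.085) and HIF1A (-0.13) with the GC correction. Leaving out a library gave 116 to 994 high-signal genes, 2 to 12 members, ENO1 from -0.57 to 0.36 and PKM from -0.68 to 0.71. Over all genes it gave 0 to 23895 genes and 0 to 30 members; without shFABP4 1, 25 of 31 members were called where 66.9% of genes were, and a lone library is assumed to vary like the other group. DESeq2 called 695 genes (4.72%) and 1 of 31 members over all genes, and no filter called 69 genes (0.132%). The replicate block called 28 genes (0.19%) and 0 members over all genes, and 386 genes (36%) and 5 of 12 members of the high-signal set. Same-numbered libraries are linked only by their label in the sources used here, and their deviations correlated at -0.05. These deviations include the background of shFABP4 1, so the value cannot show whether libraries were paired. Without exon length the LDHA share differed by 25.9 percentage points, which is less than per kb. The causes of these shifts were not tested. The depth of shFABP4 1 and its background limit what can be seen in the 21 members outside the set.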
